A study of Mus musculus with 20 samples.

Results

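The cytochrome P450 genes were taken as the protein-coding genes on chr1 to chr19 of the mouse GENCODE basic annotation (release vM21, mm10) whose symbol is Cyp, digits, 1 letter and digits, with or without a letter at the end, such as Cyp2c29, Cyp7a1 and Cyp4a12b. This rule found 98 of 20807 protein-coding genes. Cyp51 and Cyp2ab1 do not have this form of symbol and were not members. Each gene was given a window of its body plus 5 kb on each side, and a peak belonged to a gene when at least 1 bp of it lay in that window.

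The study mapped acetylated lysine 14 of histone H3 (H3K14ac), the histone H3 lysine 9 methyltransferase Setdb1 and its partner Kap1 by ChIP-Seq in livers of C57BL/6 male mice at 3 months (young) and 21 months (old), with no treatment or genetic change in any group. For each mark and age the deposited data are 1 list of peak positions, called after the reads of 3 livers (H3K14ac and Setdb1) or 2 livers (Kap1) had been merged. These numbers of livers are those of the methods text, and the legends of some H3K14ac and Setdb1 signal plots name fewer replicates. The lists hold no peak height and no value per liver, so no spread between livers and no test of age can be given, and a site listed at 1 age only is described as listed or not listed, not as gained or lost. Whole liver holds several cell types, and a change in the share of a cell type cannot be told apart from a change within cells.

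Cytochrome P450 enzymes are heme proteins that use oxygen and electrons from a reductase to oxidize their substrates, and the liver is the main site of most of them. Families 1 to 3 act mostly on drugs and other foreign compounds, family 4 and Cyp2j on fatty acids and eicosanoids, and families 7, 8, 27 and 39 in the conversion of cholesterol to bile acids. Many of the genes arose by tandem duplication and lie in clusters of close relatives. H3K14ac is usually found at active promoters and enhancers, whereas Setdb1 and Kap1 are known for the silencing of genes and of repeats through trimethylated lysine 9 of histone H3.

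The 6 lists held 13877 (old Setdb1) to 50583 (young Setdb1) peaks, and 85.2% to 98.1% of the peaks of a list had a single fixed width, which was 500 bp in the H3K14ac lists, 200 bp in the Setdb1 lists and 150 bp in the Kap1 lists. Over the whole genome the old list held 106% as many peaks as the young one for H3K14ac, 27.4% for Setdb1 and 45.3% for Kap1. Of 8 hepatocyte marker genes, 3 had an H3K14ac peak within 1 kb of a start site in young and 3 in old liver (Apoa1 and Apob at both ages, Trf in young and Ttr in old), while Alb had none. Anywhere in the window it was listed at 5 hepatocyte markers in young and 4 in old liver, and at none of the 3 lymphocyte or 3 Kupffer cell markers at either age. Of 3 endothelial markers 1 had it in young and 2 in old liver, and of 3 stellate cell markers Reln had it at both ages, in young liver at a start site. Of 3 cholangiocyte markers Sox9 had it in old liver, at a start site, and of 6 markers of other organs 3 had it in young and 2 in old liver. Of all protein-coding genes, 19.0% in young and 27.6% in old liver had it at a start site, and 33.6% and 42.0% in the window. With 3 to 8 markers in a list these counts are small, and nothing about cell types is read from them.

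In the windows of the P450 genes the lists held 402 peaks in all, none of them wider than 500 bp. The median P450 gene had 2 peaks over the 6 lists, and Cyp2c29 had the most with 26. An H3K14ac peak lay in the window of 31 of 98 P450 genes in young liver (31.6%, against 33.6% of all protein-coding genes) and 38 in old liver (38.8% against 42.0%). Setdb1 was listed at 42 genes in young (42.9% against 44.9%) and 15 in old liver (15.3% against 18.5%). Kap1 was listed at 34 genes in young (34.7% against 35.2%) and 28 in old liver (28.6% against 19.8%). The median window was 32.6 kb for P450 genes and 27.6 kb for all protein-coding genes. The shares lay close to those of all genes in 5 of the 6 lists and are not read as a result about the P450 genes. In the old Kap1 list the share was higher, with 10 of the 15 Cyp2c genes and 18 of the 83 other P450 genes (21.7%) called, so that outside Cyp2c it was close to that of all genes. Cyp2c genes also had a higher share than the others for young Kap1 (73.3% against 27.7%) and young Setdb1 (73.3% against 37.3%). For H3K14ac it was 53.3% at each age, against 27.7% in young and 36.1% in old liver. For old Setdb1 it was 13.3% against 15.7%.

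At both ages an H3K14ac peak was found in the windows of 18 P450 genes (18.4%, against 22.6% of all genes), a Setdb1 peak in those of 9 (9.18% against 12.9%) and a Kap1 peak in those of 19 (19.4% against 13.1%). All 3 marks were listed in the windows of 8 genes in young liver (8.16% against 9.87%), which were Cyp2b23, Cyp2b19, Cyp4f18, Cyp2c55, Cyp2c66, Cyp2c29, Cyp2c38 and Cyp2c67. In old liver this held for Cyp3a57, Cyp2c38 and Cyp2c39 (3 genes, 3.06% against 4.21%). No peak of any list lay in the windows of 17 genes (17.3% against 18.7%). These include Cyp1a2, an abundant liver enzyme that oxidizes caffeine, Cyp2b10, the classical target of phenobarbital, the fatty acid hydroxylase Cyp4a10, and 4 of the 6 genes of steroid hormone synthesis (Cyp11a1, Cyp11b1, Cyp11b2 and Cyp17a1). The others were Cyp1b1, Cyp2c54, Cyp2d10, Cyp2d40, Cyp2j9, Cyp3a41b, Cyp4f16, Cyp4f37, Cyp4f40 and Cyp4v3.

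**Figure D1:**
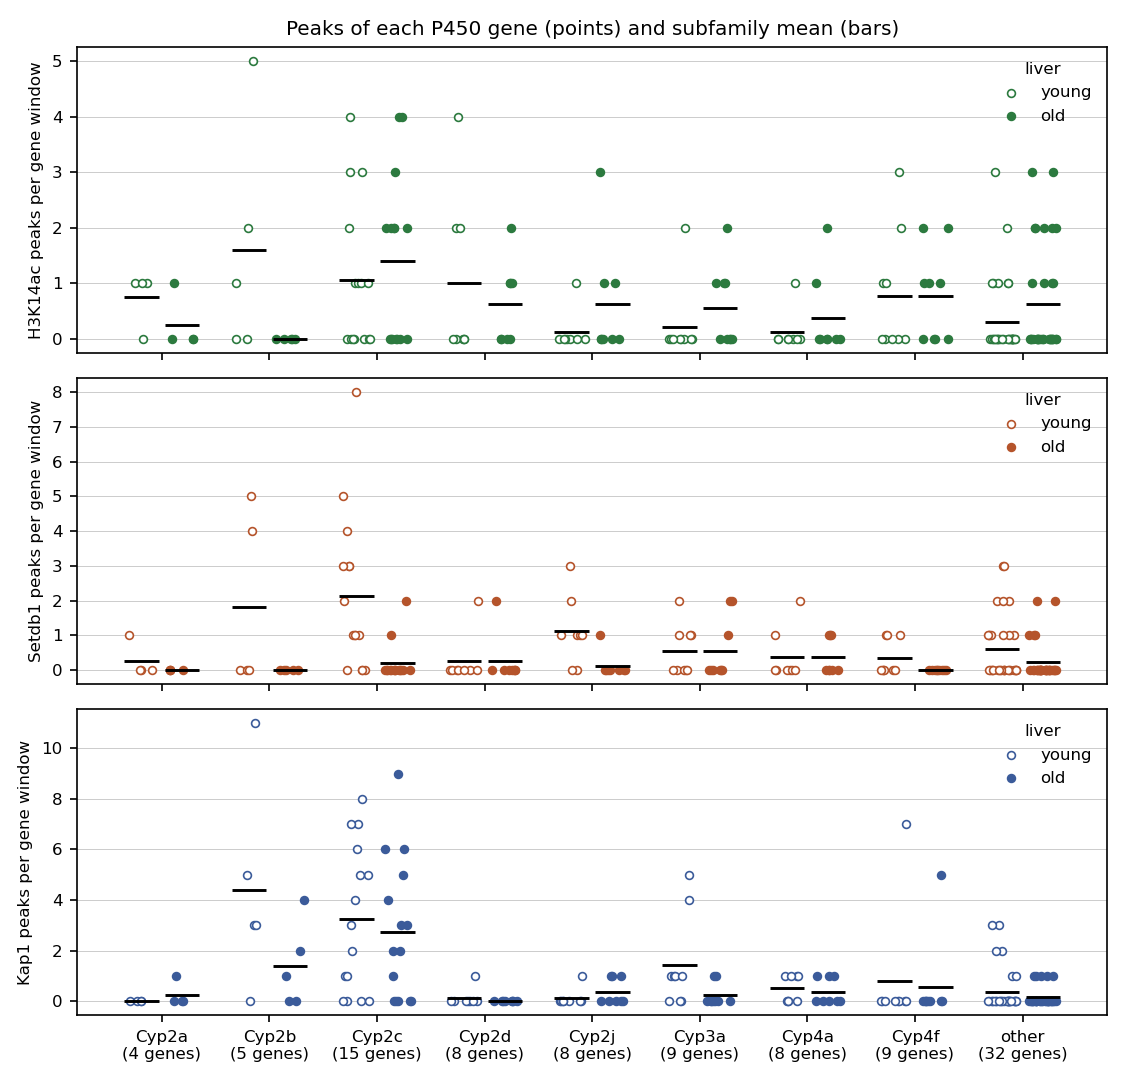
Number of H3K14ac (top), Setdb1 (middle) and Kap1 (bottom) peaks in the window of each P450 gene (points, shifted sideways at random) by subfamily, in young (open) and old (filled) liver, with the mean over genes as a bar. Subfamilies with fewer than 4 genes are pooled as other, and the largest counts are those of Kap1 in Cyp2b and Cyp2c genes, up to 11 peaks at Cyp2b23 in young liver.

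Counted as distinct peaks over the merged windows (3.57 Mb), the P450 genes held 56 H3K14ac peaks in young and 67 in old liver, 83 and 21 Setdb1 peaks, and 109 and 66 Kap1 peaks. Per Mb this was 15.7 and 18.8 for H3K14ac, against 9.76 and 11.8 in the windows of all protein-coding genes. Setdb1 was listed at 23.2 and 5.88 peaks per Mb, against 19.5 and 5.15. Kap1 was listed at 30.5 and 18.5 peaks per Mb, against 16.9 and 7.53. The old list thus held 120% as many peaks as the young list for H3K14ac (121% over all coding windows), 25.3% for Setdb1 (26.4%) and 60.6% for Kap1 (44.5%). The Kap1 value rested on the Cyp2c genes, since old Kap1 peaks were 83.7% as many as young ones in Cyp2c windows and 41.7% as many in the windows of the other P450 genes. The windows of all 20807 protein-coding genes merged to 1128 Mb and reached 4445 kb, against at most 181 kb for a P450 gene. A density per Mb depends on window length, so the higher densities are not read as more peaks per P450 gene.

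**Figure D2:**
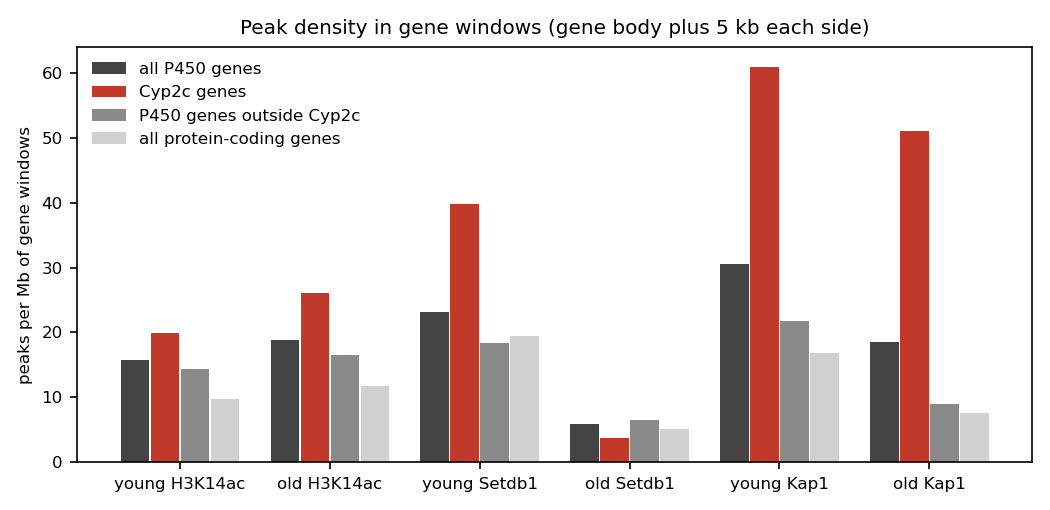
Peaks per Mb of gene windows in each of the 6 lists, for all 98 P450 genes, the 15 Cyp2c genes, the P450 genes outside Cyp2c and all protein-coding genes. Kap1 in Cyp2c windows stood at 60.9 (young) and 51.0 (old) peaks per Mb, against 16.9 and 7.53 in all coding windows, and the bars carry no error because each list was called once on merged livers.

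Few of the sites were the same at both ages. Of the 56 young H3K14ac peaks, 12 shared at least 1 bp with an old H3K14ac peak (21.4%, 95% Wilson interval 12.7 to 33.8%), and over all coding windows 28.7% did. None of the 83 young Setdb1 peaks shared a base with an old one (Wilson interval up to 4.42%), against 0.797% over all coding windows. For Kap1 it was 6 of 109 (5.50%, interval 2.55 to 11.5%), against 7.09%. Counted from the old lists, 13 of 67 H3K14ac peaks (19.4%, interval 11.7 to 30.4%) had a young partner, against 24.1%. None of 21 old Setdb1 peaks did (interval up to 15.5%), against 3.01%. Of 66 old Kap1 peaks 6 did (9.09%, interval 4.23 to 18.4%), against 16.1%. These intervals cover counting error only. By gene, a site with bases in both lists was found in 9 of the 18 genes with H3K14ac at both ages, against 61.4% of all such protein-coding genes, and in 6 of the 19 with Kap1 (31.6% against 24.5%). It was found in 0 of the 9 with Setdb1, against 7.14%, and nothing particular to P450 genes is read from so few.

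The peaks were then placed within their genes. Of the H3K14ac peaks, 30.4% (17 of 56) in young and 29.9% (20 of 67) in old liver lay within 1 kb of a start site of their gene, against 40.1% and 49.8% over all coding windows. Introns held 33.9% and 40.3% of them, against 41.2% and 34.7%. Introns held 69.9% (young) and 71.4% (old) of the Setdb1 peaks, against 76.6% and 74.3%, and 58.7% and 68.2% of the Kap1 peaks, against 65.7% and 64.3%. Start-site peaks made up 7.23% and 4.76% of the Setdb1 peaks, against 3.87% and 4.36%, and 5.50% and 1.52% of the Kap1 peaks, against 7.17% and 6.62%. The start-site shares of old Setdb1 and old Kap1 rest on 1 peak each.

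Within 1 kb of a start site, H3K14ac was listed at 14 P450 genes in young (14.3%, against 19.0% of all protein-coding genes) and 16 in old liver (16.3% against 27.6%). Within 5 kb the counts were 24 in young (24.5% against 23.9%) and 27 in old liver (27.6% against 32.7%), so the lower share in young liver did not hold at this distance. Of the genes with a peak within 1 kb, 5 had such a peak at both ages (5.10% of the P450 genes against 12.0% of all genes). They were Cyp7b1, the oxysterol 7alpha-hydroxylase, Cyp2u1, a fatty acid hydroxylase, Cyp2d22, and the family 4 genes Cyp4f13 and Cyp4f15. In Cyp2d22 the peaks of both ages (chr15:82379788-82380287 in young liver) covered the start site and were nearly the same interval, with 498 bp shared. Cyp4f15 shared 493 bp, Cyp4f13 432 bp and Cyp2u1 422 bp, all on the transcribed side of the start. In Cyp7b1 the young peak (chr3:18242975-18243474) covered the start site and the old peak (chr3:18243506-18244005) lay upstream of it across a gap of 31 bp.

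In young liver alone 9 genes had a start-site H3K14ac peak (9.18%, against 7.06% of all protein-coding genes). Among them were Cyp3a11, the main mouse counterpart of the human drug-metabolizing CYP3A4, whose peak (chr5:145879525-145880024) covered the start, and Cyp2r1, a vitamin D 25-hydroxylase, whose peak also did so. Cyp2d26 had a peak over its start and another that began 855 bp downstream. The epoxygenase Cyp2j5 had a peak that began 75 bp downstream, and the peaks of Cyp2d9 and Cyp2c23 began 615 and 970 bp downstream. Those of Cyp2a12 and Cyp2c55 ended 164 and 498 bp upstream. The peak of Cyp2c29 began 850 bp after the start of its longest transcript, which lies downstream of the outermost annotated start.

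In old liver alone 11 genes had such a peak (11.2%, against 15.7% of all protein-coding genes). They include Cyp27a1, the mitochondrial sterol 27-hydroxylase, and Cyp8b1, the 12alpha-hydroxylase that makes cholic acid, with the peak over the start in both (chr1:74713451-74713950 and chr9:121915962-121916461). The start was also covered in Cyp2d11 and in the fatty acid hydroxylase Cyp4a14. In Cyp2j6, Cyp2s1, Cyp2c38 and Cyp2c39 the peak began 35, 44, 100 and 617 bp downstream, and in Cyp2j11 it ended 383 bp upstream. Cyp2c68 had a pair of peaks that ended 276 and 802 bp upstream. At Cyp1a1, the Ahr target that oxidizes aromatic hydrocarbons, the peak ended 999 bp upstream of the inner of 2 annotated starts, just inside the limit of 1 kb, and lay 8187 bp downstream of the start of the longest transcript. With the longest transcript alone, 15 genes rather than 16 had a start-site peak in old liver. Cyp8b1 was not without H3K14ac in young liver, as a young peak lay over its single exon, 1495 bp downstream of the start, and shared bases with 2 old peaks.

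**Figure D3:**
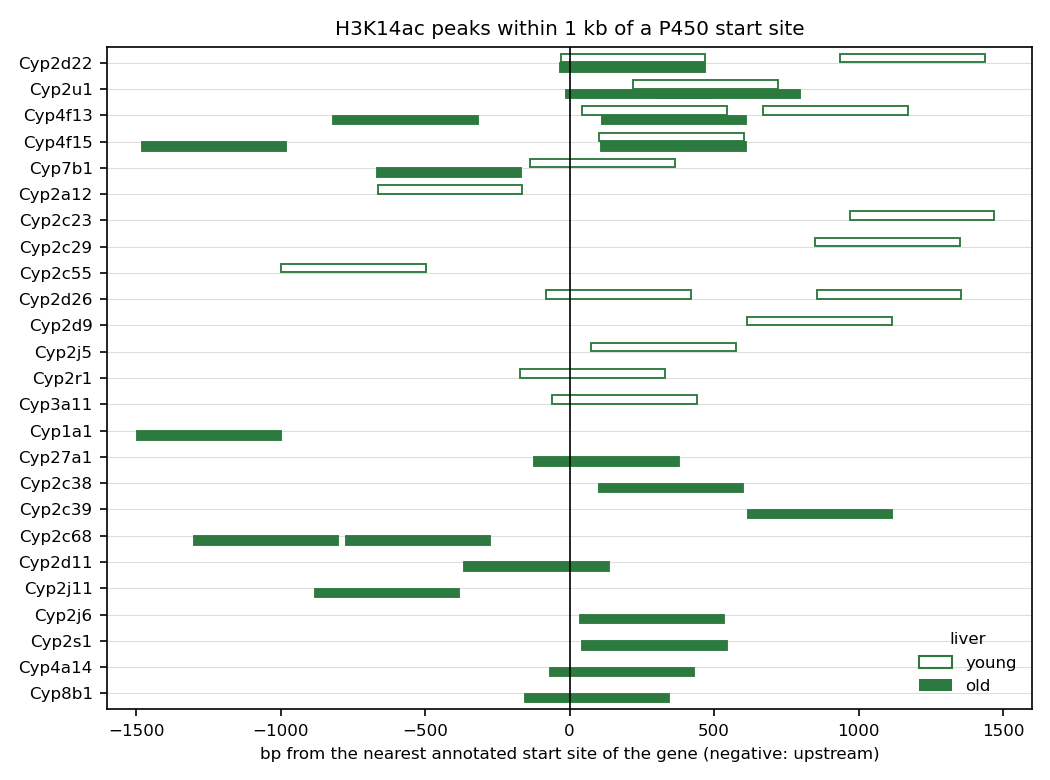
H3K14ac peaks within 1 kb of a start site for each P450 gene that had one, drawn to scale in bp from the nearest annotated start (0, negative values upstream), in young (open) and old (filled) liver. The top 5 genes had peaks at both ages, followed by 9 genes with a peak in young liver and 11 with a peak in old liver.

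The promoter sequences of 5 of these genes are given below, because these genes had an H3K14ac peak within 1 kb of the start at both ages (Cyp4f13, Cyp4f15), in old (Cyp27a1, Cyp8b1) or in young liver (Cyp3a11). They run from 250 bases before to 50 after the RefSeq start (GRCm38.p6, the build of the files), 5′ to 3′ on the strand of the gene. RefSeq promoters matched 75 of the 98 genes, and Cyp7b1, Cyp2u1 and Cyp2d22 were not among them. Capitals mark matches, on either strand, to any of 5 motifs: ATTGAT (the core of the Hnf6 or Onecut motif), TATAAA (the TATA box), GCGTG (the core of the Ahr element), CAAAG (a core of the Hnf4a motif) and TTGCNNAA (the Cebp palindrome). The RefSeq start of Cyp3a11 lies 110 bp downstream of the GENCODE start, and 220 of its 300 promoter bases were inside the young H3K14ac peak. Of the Cyp8b1 promoter 206 bases and of the Cyp27a1 promoter 134 bases were inside an old peak, whereas 25 bases of the Cyp4f13 promoter were inside a young peak and 0 inside an old one. No printed base of Cyp4f15 lay in an H3K14ac peak of either age.
Cyp4f13 promoter, chr17:32947312-32947611, minus strand: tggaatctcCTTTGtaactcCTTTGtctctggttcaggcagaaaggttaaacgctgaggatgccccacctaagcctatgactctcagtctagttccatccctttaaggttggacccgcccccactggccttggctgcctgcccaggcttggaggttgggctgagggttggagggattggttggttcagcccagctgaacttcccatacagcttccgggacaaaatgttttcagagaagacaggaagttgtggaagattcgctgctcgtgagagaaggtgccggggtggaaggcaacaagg
Cyp4f15 promoter, chr17:32685409-32685708, plus strand: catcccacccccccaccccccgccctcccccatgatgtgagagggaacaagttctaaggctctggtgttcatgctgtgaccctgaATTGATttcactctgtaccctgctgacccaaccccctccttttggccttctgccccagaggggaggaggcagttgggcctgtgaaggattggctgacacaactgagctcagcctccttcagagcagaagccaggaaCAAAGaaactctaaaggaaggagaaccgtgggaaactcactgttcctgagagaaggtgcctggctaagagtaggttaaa
Cyp27a1 promoter, chr1:74713285-74713584, plus strand: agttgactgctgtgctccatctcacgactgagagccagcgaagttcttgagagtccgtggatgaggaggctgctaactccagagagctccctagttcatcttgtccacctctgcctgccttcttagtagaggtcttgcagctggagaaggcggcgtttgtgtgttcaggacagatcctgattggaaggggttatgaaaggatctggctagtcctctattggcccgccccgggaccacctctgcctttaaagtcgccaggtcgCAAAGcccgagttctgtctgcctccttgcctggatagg
Cyp8b1 promoter, chr9:121916256-121916555, minus strand: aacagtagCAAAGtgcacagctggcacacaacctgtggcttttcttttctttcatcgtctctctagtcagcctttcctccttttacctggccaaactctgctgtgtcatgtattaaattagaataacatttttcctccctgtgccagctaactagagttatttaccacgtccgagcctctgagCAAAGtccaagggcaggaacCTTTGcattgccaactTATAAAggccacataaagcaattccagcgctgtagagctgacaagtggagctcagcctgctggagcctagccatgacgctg
Cyp3a11 promoter, chr5:145879805-145880104, minus strand: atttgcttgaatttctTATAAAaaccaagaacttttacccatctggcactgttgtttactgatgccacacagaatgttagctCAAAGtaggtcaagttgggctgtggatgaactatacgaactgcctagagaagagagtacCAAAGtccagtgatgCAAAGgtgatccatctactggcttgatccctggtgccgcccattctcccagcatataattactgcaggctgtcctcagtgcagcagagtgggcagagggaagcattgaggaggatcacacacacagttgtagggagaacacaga
Cyp8b1 held TATAAA starting 31 bases before its start and 3 CAAAG matches, and Cyp4f15 held ATTGAT starting 165 bases before its start.

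Over the 85 RefSeq promoters of the 75 genes, ATTGAT was found in 16.5%, against 7.48% of all 31396 autosomal promoters in the RefSeq table. TATAAA was found in 40.0% against 13.6%, CAAAG in 85.9% against 53.9%, and TTGCNNAA in 24.7% against 10.9%. GCGTG, which contains a CpG, was found in 18.8% against 32.8%. Among promoters of protein-coding genes alone the shares were 6.14% for ATTGAT, 12.1% for TATAAA, 50.7% for CAAAG, 10.1% for TTGCNNAA and 40.0% for GCGTG. Close gene copies were counted as separate promoters, and Cyp3a41a, Cyp3a41b and Cyp3a44 held ATTGAT at the same position. Median GC was 49.7% in P450 promoters and 57.3% in those of all protein-coding genes. The parts of gene copies and GC in these shares were not tested. Of the 21 promoters of genes with a start-site H3K14ac peak, 85.7% held CAAAG, 57.1% TATAAA, 14.3% GCGTG, 9.52% ATTGAT and none TTGCNNAA. P450 promoters had a median of 2 CpG sites in 300 bases, against 14 for all protein-coding genes. Only 10.6% of them had 10 or more CpG sites, against 59.3%. The part of CpG content in the lower share of P450 genes with H3K14ac within 1 kb of a start was not tested. A match to a motif describes the letters and is not evidence of binding.

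Setdb1 lay within 1 kb of a start site of 5 P450 genes in young liver (5.10% against 4.05% of all genes), namely Cyp7a1, Cyp39a1, Cyp2c29, Cyp2j11 and Cyp2d34, and of Cyp3a11 alone in old liver (1.02% against 1.20%). Kap1 did so at Cyp4b1, Cyp3a16, Cyp2b9, Cyp4f18 and Cyp2c66 in young (5 genes, 5.10% against 5.48%) and at Cyp2b19 in old liver (1.02% against 2.36%). None of these Setdb1 or Kap1 peaks had a partner at the other age. At Cyp2c29 the Setdb1 peak (chr19:39287652-39287851) ended 72 bp short of the young H3K14ac peak near the start of the longest transcript. At Cyp3a11 the H3K14ac peak over the start was listed in young liver and a Setdb1 peak 540 bp downstream of the start in old liver.

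Cyp7a1, the rate-limiting enzyme of bile acid synthesis, had a single peak over the 6 lists. It was a young Setdb1 peak that ended 638 bp upstream of the start, and it is printed here because it was the only mark at this gene.
Setdb1 peak before Cyp7a1, chr4:6276269-6276468, plus strand: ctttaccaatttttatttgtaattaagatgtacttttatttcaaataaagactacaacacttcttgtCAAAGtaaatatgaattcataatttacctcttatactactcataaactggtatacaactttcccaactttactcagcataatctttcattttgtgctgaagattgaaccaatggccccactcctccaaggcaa
Of the 5 motifs above it held 1 match to CAAAG, in capitals. The other genes of bile acid and cholesterol turnover, apart from Cyp46a1, differed from Cyp7a1 in their marks. Cyp7b1 had 3 H3K14ac peaks at each age, with 3 Setdb1 peaks in young and 2 in old liver. Cyp8b1 had 1 H3K14ac peak in young and 3 in old liver, and Cyp27a1 had 0 and 2. Cyp39a1, an oxysterol 7alpha-hydroxylase, had no H3K14ac peak but 2 Setdb1 and 3 Kap1 peaks in young and 1 Kap1 peak in old liver, and Cyp46a1, the cholesterol 24-hydroxylase of the brain, had 1 young Setdb1 peak. Of the 6 genes, 2 had H3K14ac in the window in young (33.3%, against 33.6% of all protein-coding genes) and 3 in old liver (against 42.0%), which is near the share of all genes. At a start site H3K14ac was listed at 1 in young (16.7% against 19.0%) and 3 in old liver (against 27.6%). Setdb1 was in the window of 4 in young (66.7% against 44.9%) and 1 in old liver (16.7% against 18.5%), and at a start site of 2 in young (33.3% against 4.05%) and 0 in old liver (against 1.20%). The start-site peak of Cyp39a1 lay 1000 bp from the nearest start, at the very limit, and 1100 bp from that of the longest transcript. With 6 genes these counts are small, and no test was made of them.

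The genes were also counted by role. Of 44 genes for foreign compounds, 19 had H3K14ac in the window at each age (43.2%, against 33.6% of all protein-coding genes in young and 42.0% in old liver). At a start site it was 8 in young (18.2% against 19.0%) and 6 in old liver (13.6% against 27.6%). Setdb1 was listed at 19 of them in young (43.2% against 44.9%) and 6 in old liver (13.6% against 18.5%), and Kap1 at 22 of the 44 (against 35.2% of all genes) and 16 (36.4% against 19.8%). These genes include the Cyp2c genes. Of 29 genes for fatty acids and eicosanoids, 7 in young (24.1% against 33.6%) and 12 in old liver (41.4% against 42.0%) had H3K14ac in the window. Setdb1 was listed at 13 (44.8% against 44.9%) and 5 (17.2% against 18.5%) of these, and Kap1 at 8 (27.6% against 35.2%) and 7 (24.1% against 19.8%). None of the 6 steroid hormone genes had H3K14ac in the window, against 33.6% of all genes in young and 42.0% in old liver. Setdb1 was listed at 2 of them in young (33.3% against 44.9%) and 1 in old liver (16.7% against 18.5%), and Cyp19a1, the aromatase, had 3 peaks in young and 2 in old liver. Among the 6 genes of vitamin D and retinoid turnover, Cyp2r1 had H3K14ac in young liver (16.7% against 33.6%) and none had it in old liver (against 42.0%). Setdb1 was listed at 2 of these 6 at each age (33.3%, against 44.9% and 18.5%). Kap1 was listed at none in young (against 35.2%) and at Cyp2r1, Cyp26a1 and Cyp26c1 in old liver (3 of 6, against 19.8%). The calls at Cyp26a1 and Cyp26c1 rest on the same peak, which lay in both windows.

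Of 32 P450 genes known as abundant in mouse liver, 18 had H3K14ac in the window in young (56.2%, against 33.6% of all protein-coding genes) and 14 in old liver (43.8% against 42.0%). At a start site it was 10 in young (31.2% against 19.0%) and 7 in old liver (21.9% against 27.6%). Of 13 genes expressed mainly outside the liver, 1 had it in the window in young (7.69% against 33.6%) and 3 in old liver (23.1% against 42.0%), with 0 and 1 at a start site. No test was made of these counts, and nothing particular to a list is read from them. Cyp2e1, the ethanol-oxidizing enzyme and one of the most abundant, had 1 young and 2 old H3K14ac peaks, none of them within 1 kb of its start. The 9 genes known as female-predominant had no H3K14ac at a start site in these livers of male mice, against 19.0% of all genes in young and 27.6% in old liver. In the window 2 of them had it at each age (22.2%, against 33.6% and 42.0%). Kap1 was in the window of 7 of them in young (77.8% against 35.2%) and 4 in old liver (44.4% against 19.8%), and at a start site of 2 in young (22.2% against 5.48%) and 0 in old liver (against 2.36%). With 9 genes these counts are small. Of the 4 male-predominant genes, Cyp2d9 and Cyp7b1 had H3K14ac at a start site in young liver (against 19.0% of all genes) and 1 gene, Cyp7b1, in old liver (against 27.6%). Among 22 partners and regulators that are not P450 genes by the rule, such as the reductase gene Por and the receptor genes Rxra and Ppara, 15 in young (68.2% against 19.0%) and 14 in old liver (63.6% against 27.6%) had H3K14ac at a start site.

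The 15 Cyp2c genes, which encode epoxygenases and drug-metabolizing enzymes, covered 0.805 Mb of windows on chr19 and held 16 H3K14ac, 32 Setdb1 and 49 Kap1 peaks in young liver. In old liver they held 21, 3 and 41. Kap1 thus stood at 60.9 and 51.0 peaks per Mb. In Cyp2b windows it was higher in young liver, at 117 per Mb, and lower in old liver, at 37.3. The windows of all protein-coding genes of chr19 held 658 young and 281 old Kap1 peaks, the latter at 8.56 per Mb and 42.7% as many as the young ones. For Setdb1 the values were 39.8 and 3.73 peaks per Mb, against 31.7 and 5.76 on chr19. Of the 49 young Kap1 peaks, 4 shared a base with an old peak (8.16%, Wilson interval 3.22 to 19.2%), close to the 8.36% of the coding windows of chr19. Of the 41 old Kap1 peaks, 4 shared a base with a young peak (9.76%, interval 3.86 to 22.5%), against 19.2% on chr19.

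The genes of the cluster were not alike. Cyp2c66 had 7 Kap1 peaks in young and 9 in old liver, Cyp2c29 had 5 and 6, Cyp2c55 5 and 6, Cyp2c39 6 and 5, and Cyp2c38 8 and 4. Cyp2c65 had 7 in young and 1 in old liver. The genes Cyp2c54, Cyp2c50 and Cyp2c70 at the right end of the cluster and the distant Cyp2c23 had no Kap1 peak at either age. Setdb1 in young liver had 8 peaks at Cyp2c29, 5 at Cyp2c38 and 4 at Cyp2c55. The 3 old Setdb1 peaks were at Cyp2c38 (2 peaks) and Cyp2c39 (1 peak). H3K14ac was listed at Cyp2c66 with 4 and 2 peaks, at Cyp2c29 with 3 and 4, at Cyp2c38 with 1 and 4, and at Cyp2c68 with 0 and 3. Over the whole cluster of 14 genes (chr19:39002019-40192333), with the space between the windows, there were 76 Kap1 peaks in young and 64 in old liver, 44 and 6 Setdb1 peaks, and 31 and 25 H3K14ac peaks.

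**Figure D4:**
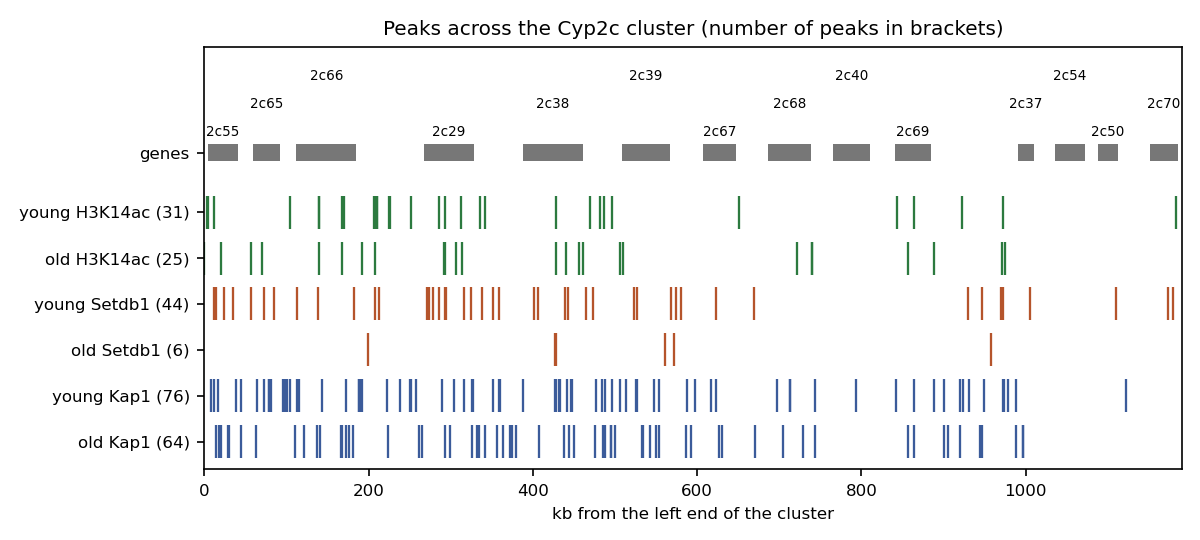
Peaks of the 6 lists (vertical ticks at peak centers, number of peaks in brackets) along the Cyp2c cluster of 14 genes (gray boxes, prefix Cyp left out), in kb from its left end. Kap1 ticks run from Cyp2c55 as far as Cyp2c37 at both ages, with 1 young peak beyond it, and the old Setdb1 row holds 6 ticks against 44 in the young row.

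Windows of Cyp2c genes held more repeat sequence than others. Soft-masked repeats made up 53.1% of Cyp2c windows, 33.5% of the other P450 windows and 27.7% of all coding windows. The median Kap1 peak was 54.0% (young) and 52.0% (old) repeat in Cyp2c windows, and 17.7% and 12.7% in the windows of other P450 genes. The other marks also had more repeat in Cyp2c windows, with medians for H3K14ac of 43.0% and 36.6% against 13.4% at both ages, and for young Setdb1 of 41.8% against 21.0%. Since the genes are close copies of each other and only uniquely aligned reads had been kept, 50-base words of the windows were looked up in the genome. In P450 windows 16.4% of the words occurred more than once, against 7.07% in all coding windows. The share was 26.5% in Cyp2c, 27.5% in Cyp3a, 27.2% in Cyp4a and 36.7% in Cyp2a windows, and 79.5% in that of Cyp3a41b, which had no peak. Over all 17 P450 genes with no peak it was 15.3%, and over the 81 with a peak 16.6%. Words inside the listed P450 peaks occurred more than once in 1.19% to 5.18%, depending on the list. For such stretches the absence of a peak is not evidence that the mark was absent. The part of repeats in the number of Kap1 peaks was not tested.

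The 5 genes of the Cyp2b subfamily, which includes the phenobarbital-induced Cyp2b10, held 8 H3K14ac, 9 Setdb1 and 22 Kap1 peaks in young liver and 0, 0 and 7 in old liver. The old lists were themselves shorter for Setdb1 and Kap1: in the coding windows of chr7 the old list held 118% as many peaks as the young one for H3K14ac, 446 against 1487 for Setdb1, and 41.5% as many for Kap1, the last against 31.8% in Cyp2b windows. Cyp2b23 had 2 H3K14ac, 5 Setdb1 and 11 Kap1 peaks in young liver and no peak in old liver. Cyp2b19, known for its expression in skin, had 5, 4 and 5 in young liver and 4 Kap1 peaks in old liver. Cyp2b9 and Cyp2b13, both female-predominant in liver, had 3 Kap1 peaks each in young liver and 1 and 2 in old liver. Across the cluster from Cyp2b23 to Cyp2t4 (chr7:26660227-27163668), the young lists held 17 H3K14ac, 22 Setdb1 and 39 Kap1 peaks and the old lists 4, 1 and 9.

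**Figure D5:**
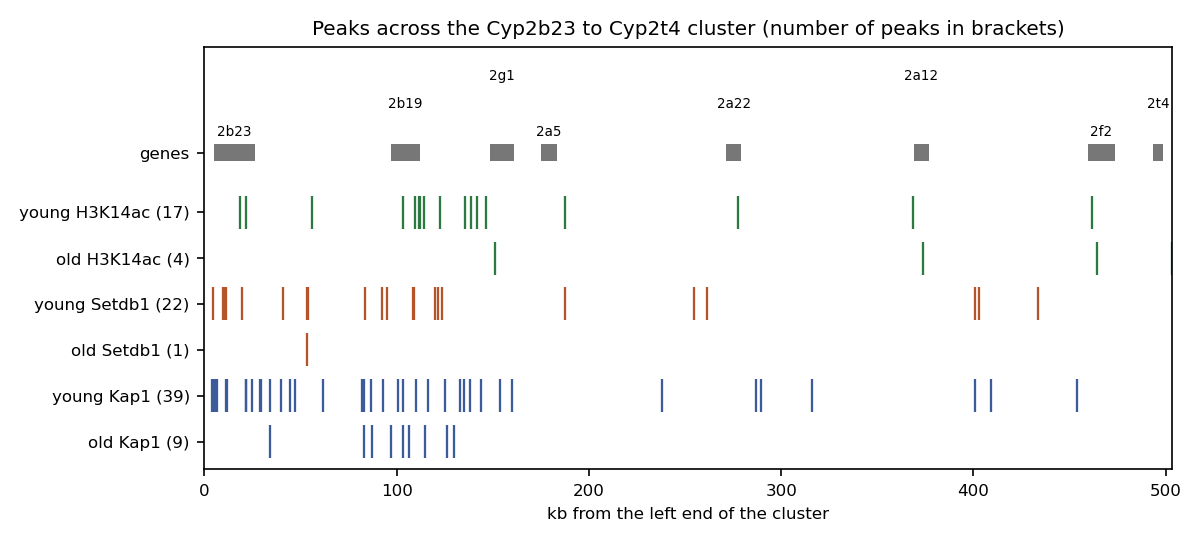
Peaks of the 6 lists (vertical ticks at peak centers, number of peaks in brackets) along the cluster from Cyp2b23 to Cyp2t4 (gray boxes, prefix Cyp left out), in kb from its left end. Most young ticks lie between Cyp2b23 and Cyp2g1, with 17 H3K14ac, 22 Setdb1 and 39 Kap1 peaks over the whole cluster against 4, 1 and 9 in the old rows.

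The counts of the other clusters were small, and stand against old lists that held 121% (H3K14ac), 26.4% (Setdb1) and 44.5% (Kap1) as many peaks as the young lists over all coding windows. The 8 Cyp2d genes held 8 H3K14ac peaks in young and 5 in old liver, with 2 Setdb1 peaks at each age and 1 Kap1 peak, in young liver. Cyp2d22 had 4 of the young and 2 of the old H3K14ac peaks. The 8 Cyp2j genes held 1 H3K14ac peak in young and 5 in old liver, 3 of the old ones at Cyp2j11, and 9 Setdb1 peaks in young and 1 in old liver. The 9 Cyp3a genes held 13 Kap1 peaks in young and 2 in old liver, and 5 Setdb1 peaks at each age. In the whole Cyp3a cluster of 8 genes on chr5, most Kap1 peaks lay between the gene windows: the cluster held 65 in young and 27 in old liver, of which 12 and 1 were in windows. The 8 Cyp4a genes held 1 and 3 H3K14ac peaks, and the 9 Cyp4f genes 7 at each age. In Cyp4f all Kap1 peaks, 7 in young and 5 in old liver, were at Cyp4f18, whose window overlaps the gene of the zinc finger protein Zfp961. Of these peaks 4 in young and 2 in old liver also lay within Zfp961. Over all 98 windows 13 of the 402 peaks lay in another protein-coding gene, among them the old H3K14ac peak downstream of Cyp1a1, which lay in Edc3.

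H3K14ac seldom shared bases with Setdb1 or Kap1 of the same age at P450 genes. A base in common with Kap1 was found for 5 of the 56 H3K14ac peaks of young liver (8.93% with a Wilson interval of 3.87 to 19.3%, and 8.45% over all coding windows). These lay in Cyp2b23, Cyp2b19, Cyp2c55, Cyp2c38 and Cyp2c69. With Setdb1 it was 2 of 56 (3.57%, interval 0.985 to 12.1%, against 1.89%), at Cyp2b19 and downstream of Cyp2a5. In old liver 3 of 67 H3K14ac peaks shared bases with Kap1 (4.48%, interval 1.53 to 12.4%, against 4.19%), in Cyp2c55, Cyp2c29 and Cyp2c69, and 1 with Setdb1 (1.49%, interval 0.264 to 7.98%, against 0.525%), in Cyp2c38. Setdb1 and Kap1, though known as partners, shared bases at 3 of 83 Setdb1 peaks in young (3.61%, interval 1.24 to 10.1%, against 1.79%) and 1 of 21 in old liver (4.76%, interval 0.846 to 22.7%, against 1.89%). Those were at Cyp2b23, Cyp4f18 and Cyp2c67 in young and upstream of Cyp4a30b in old liver. Every one of these shares had the value over all coding windows inside its interval.

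At Cyp2c38 an H3K14ac site in an intron was listed at both ages, with 434 bp shared. The young H3K14ac peak contained a Kap1 peak and the old one a Setdb1 peak, and these Kap1 and Setdb1 peaks overlapped each other. The sequence of the old Setdb1 peak is given because it was the only P450 site at which H3K14ac shared bases with Setdb1 in old liver, with the 112 bases that also lay in the young Kap1 peak in capitals.
Setdb1 peak in Cyp2c38, chr19:39429579-39429778, plus strand: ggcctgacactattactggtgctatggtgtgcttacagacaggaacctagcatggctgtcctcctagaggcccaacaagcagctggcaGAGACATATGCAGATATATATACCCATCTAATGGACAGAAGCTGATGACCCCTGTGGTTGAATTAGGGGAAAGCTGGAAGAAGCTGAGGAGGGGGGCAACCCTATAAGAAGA

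The Kap1 sites listed at both ages were 6, in Cyp2b19, Cyp4f18, Cyp2c66, Cyp2c29, Cyp2c39 and Cyp2c69. In Cyp2c39 the peaks of the 2 ages shared 7 bp, and in the others 83 to 145 bp. The site in Cyp2b19 lay in an exon 6220 bp after the start, was free of masked repeats, and in young liver was inside an H3K14ac peak. The other 5 lay in introns, and the site in Cyp2c69 also shared bases with a young H3K14ac peak. Masked repeats made up none of the shared bases in Cyp2c66 and Cyp2c69, 1.15% in Cyp4f18, 54.2% in Cyp2c29 and 100% in Cyp2c39. The young Kap1 peaks of the 5 sites with the larger overlaps are printed because they are the P450 sites at which Kap1 was listed at the same place in both age groups. Capitals mark the bases that were also in the old peak.
Kap1 peak in Cyp2b19, chr7:26763357-26763506, plus strand: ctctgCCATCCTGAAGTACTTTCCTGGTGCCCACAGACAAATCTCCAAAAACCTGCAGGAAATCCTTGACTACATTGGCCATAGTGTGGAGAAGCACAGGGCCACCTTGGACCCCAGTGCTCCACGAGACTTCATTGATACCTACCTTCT
Kap1 peak in Cyp4f18, chr8:71999420-71999569, plus strand: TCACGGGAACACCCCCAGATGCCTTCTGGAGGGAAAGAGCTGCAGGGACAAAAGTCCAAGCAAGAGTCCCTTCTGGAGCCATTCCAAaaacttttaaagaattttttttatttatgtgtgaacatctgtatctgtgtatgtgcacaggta
Kap1 peak in Cyp2c66, chr19:39174361-39174510, plus strand: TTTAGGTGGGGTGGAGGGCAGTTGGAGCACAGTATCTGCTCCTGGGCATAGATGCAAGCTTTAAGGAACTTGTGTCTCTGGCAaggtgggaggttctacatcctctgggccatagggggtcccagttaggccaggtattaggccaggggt
Kap1 peak in Cyp2c29, chr19:39328118-39328267, plus strand: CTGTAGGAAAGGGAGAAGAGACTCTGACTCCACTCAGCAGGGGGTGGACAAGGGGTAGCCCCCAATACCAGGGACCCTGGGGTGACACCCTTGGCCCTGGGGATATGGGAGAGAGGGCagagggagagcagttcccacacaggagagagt
Kap1 peak in Cyp2c69, chr19:39866398-39866547, plus strand: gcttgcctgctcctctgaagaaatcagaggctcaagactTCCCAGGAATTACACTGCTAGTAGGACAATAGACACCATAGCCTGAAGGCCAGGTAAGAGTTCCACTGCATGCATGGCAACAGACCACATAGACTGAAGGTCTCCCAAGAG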

How the data were processed

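The authors aligned ChIP-Seq reads of young and old mouse liver to mm10 with BWA, removed duplicates, kept uniquely aligned reads, merged 3 (H3K14ac, Setdb1) or 2 (Kap1) livers for each age by their methods text (some legends name fewer), and used PeakSeq with input as control to call the peaks (FDR of 5%, q-value threshold set per mark). The deposited files hold peak positions only, so the read depth behind a peak is unknown here. The sequential ChIP samples were not analysed here. Peaks were compared with GENCODE vM21 basic genes by overlap of at least 1 bp (Python 3.11.15, numpy 2.4.6), a step checked against bedtools 2.31.1 and on simulated peaks. Sequence came from GRCm38.p6. The 50-base words were taken every 100 bp in P450 windows and every 2000 bp in all coding windows, and looked up on both strands. Intervals of shares are 95% Wilson intervals. Genes were named by rule: a start-site H3K14ac peak, the 10 highest peak totals, H3K14ac sharing bases with Kap1 or Setdb1, no peak, or membership of a role list. The members, lists and motifs were chosen with earlier results of these data known. Alternatives changed the window, the overlap, the peak width, the merging of peaks, the transcript and the distance from the start.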

Additional observations from a re-analysis of the deposited data

How the results depend on the processing

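The 14 counts of genes and peaks were recomputed under 62 alternative settings, and 60 of these stayed within 1.5 times the reported count. The exceptions were the genes with H3K14ac at a start site when the distance was widened to 5 kb, which numbered 24 in young and 27 in old liver. For each of the 14 counts, 1 alternative kept only peaks of at most 1000 bp. It could not change a count, since no peak in the windows was wider than 500 bp. No paired analysis was possible because each mark and age has a single list from merged livers, and for the same reason no liver could be left out. The lists were called at a threshold on merged reads of unknown depth, so a site listed at 1 age only may lie just under the threshold at the other. Reads from sequence that occurs more than once in the genome may not have been kept, and the read length is not given in the sources used here, which limits what can be said of close gene copies such as Cyp3a41b. Cyp3a41a, with 77.0% of its words repeated, still had a young Kap1 peak in its downstream flank.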
